A study of Mus musculus with 4 samples.

Results

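The TRAF adaptors and the TBK1-IRF3 branch below them were followed in 4 polyA RNA-seq libraries, as 10 genes taken by symbol from a table of 24421 rows. They are the 7 TRAF genes Traf1 to Traf7, the kinase genes Tbk1 and Ikbke, and the transcription factor gene Irf3, and all 10 are in the table. The libraries came from C57BL/6 mice aged 8 weeks, 2 with an intact Usp25 (Usp25+/+: WT-139, WT-140) and 2 lacking it (Usp25-/-: KO-826, KO-850). All 4 had been given 2.5% dextran sulfate sodium (DSS), a chemical that injures the gut lining, for 5 days, and then plain water for 2 days. RNA was taken from a short stretch of colon near the anus, per the labels. No untreated mouse is among them, so every value comes from a mouse given DSS. The question is how these transcripts stand after DSS with and without Usp25, a deubiquitinase known to act on TRAF proteins. How Usp25 was inactivated, and whether the mice were littermates, is not given in the sources used here.

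TRAF proteins are adaptors that bind the cytoplasmic tails of TNF receptor family members, or docking proteins below Toll-like, IL-1 and IL-17 receptors, and most of them are also RING-type ubiquitin ligases. TRAF3 carries the signal of TRIF and MAVS to the kinases TBK1 and IKKe, which phosphorylate IRF3. IRF3 then enters the nucleus and switches on interferon beta and related genes. TRAF2, TRAF5 and TRAF6 feed mainly into NF-kappaB and MAP kinase signalling, and TRAF3 also restrains the alternative NF-kappaB pathway. Much of this control acts on the proteins, through ubiquitin and phosphate, and an mRNA level does not measure it.

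Levels are given in FPKM, a fragment number per transcript length and per library size, which allows levels of different genes to be set side by side. Where 4 values are written as a pair against a pair, they are those of WT-139 and WT-140 against KO-826 and KO-850. Usp25 itself stood at 38.5 and 16.6 FPKM in the Usp25+/+ mice and at 2.65 and 1.71 FPKM in the Usp25-/- mice, in the direction of the labels. Mouse WT-139 stood apart. The neutrophil genes (9 of 10 listed were found) summed to 40471 FPKM in it and to between 713 and 1993 FPKM in the other 3 mice. The largest parts of that sum in WT-139 were S100a8 at 19444.5 FPKM and S100a9 at 18028 FPKM. The library differed in another way too: 3862 genes were listed at 0 in WT-139, against 8813 in WT-140, 7175 in KO-826 and 8612 in KO-850. The part of technical differences between libraries was not tested. The libraries are labelled as colon, but most markers of colon epithelium and of smooth muscle were low in them. Of 10 colon epithelial markers, 8 stayed below 1 FPKM in all 4 mice, Muc2 among them, and 3 of these (Cdx1, Zg16 and Aqp8) were listed at 0 in each. The exceptions were Krt20, at 4.31 and 3.11 against 52.4 and 7.35 FPKM, and Vil1, which reached 1.46 FPKM in KO-826. Of 8 smooth muscle markers, 4 stayed below 1 FPKM in all 4 mice, Myh11 among them, and the 8 summed to between 15.2 and 22.1 FPKM. The 8 lung epithelial markers, led by surfactant genes, summed to between 2249 and 5251 FPKM. Results are therefore given for the libraries as labelled, with and without mouse WT-139 where it matters. In such whole-tissue RNA, fewer cells of a type and less RNA per cell cannot be told apart.

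The promoter windows of 3 members are shown first. Traf3 is the adaptor at the head of the branch, and Traf1 and Ikbke are shown because they varied most between mice. Each window runs from 250 bases before the annotated start to 50 bases from it (RefSeq, build GRCm38.p6), 5′ to 3′ on the gene's strand, and capitals mark a match to a kappaB-like pattern, GGG and TTCC with any 3 bases between them.
Traf3 (chr12:111166120-111166419, plus strand): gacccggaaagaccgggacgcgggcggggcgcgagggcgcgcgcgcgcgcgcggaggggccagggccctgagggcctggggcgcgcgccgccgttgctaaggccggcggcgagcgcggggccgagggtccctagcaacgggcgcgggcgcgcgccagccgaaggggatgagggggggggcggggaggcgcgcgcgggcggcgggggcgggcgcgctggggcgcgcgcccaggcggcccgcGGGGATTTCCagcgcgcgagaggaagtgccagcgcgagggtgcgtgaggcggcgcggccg
Traf1 (chr2:34961723-34962022, minus strand): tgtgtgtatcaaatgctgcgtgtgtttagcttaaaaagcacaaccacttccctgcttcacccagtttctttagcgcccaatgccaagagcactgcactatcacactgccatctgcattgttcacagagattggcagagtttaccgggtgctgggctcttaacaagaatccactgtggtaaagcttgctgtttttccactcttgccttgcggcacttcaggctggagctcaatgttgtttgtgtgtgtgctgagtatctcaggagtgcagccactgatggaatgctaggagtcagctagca
Ikbke (chr1:131279514-131279813, minus strand): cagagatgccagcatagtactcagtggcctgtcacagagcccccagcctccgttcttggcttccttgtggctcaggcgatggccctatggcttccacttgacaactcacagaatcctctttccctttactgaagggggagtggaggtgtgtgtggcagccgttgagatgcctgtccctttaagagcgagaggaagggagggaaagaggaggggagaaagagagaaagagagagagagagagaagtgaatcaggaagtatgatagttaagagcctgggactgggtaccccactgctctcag

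The Traf3 window is 84.0% G and C with 59 CG steps, and its match GGGGATTTCC fills the last 10 bases before the start. The Traf1 window has 48.7% G and C and 4 CG steps, that of Ikbke 54.0% and 4, and neither holds a match. The median over all 32851 promoter windows was 52.7% G and C with 7 CG steps. Among the 10 members, 4 hold the pattern on either strand, namely Traf3, Traf2 (GGGTGTTTCC, beginning 31 bases after the first transcribed base), Traf5 (GGGTGATTCC, beginning 207 bases before it) and Traf7 (GGGCACTTCC on the opposite strand). Of all windows, 5.56% hold it. For Traf5 and Traf7, bases just after the annotated start were not found in the Gencode transcripts of the gene, so the place of the start is less certain there. The core of the interferon-stimulated response element, GAAA repeated after any 2 bases, is in 0 of the 10 members and in 3.44% of all windows, counted on both strands. These are matches of letters in short windows, with no measurement of binding.

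Traf3 was the lowest member in the median over the mice, and its level was close to 3 FPKM in 3 of them. It stood at 8.98 FPKM in mouse WT-139, 3.31 in WT-140, 3.13 in KO-826 and 3.30 in KO-850. Both Usp25-/- mice thus lay below both Usp25+/+ mice, but KO-850 lay only just below WT-140. The log2 difference, Usp25-/- minus Usp25+/+ on log2(FPKM + 1), was -0.64 ± 0.47 (SE), with a Benjamini-Hochberg adjusted p of 0.968 by limma. Its 95% interval ran from -1.82 to 0.54. Without mouse WT-139 the difference was -0.03. Tbk1, the kinase that acts on IRF3 in most cells, had much the same profile at a higher level, 56.2 and 23.6 FPKM against 20.6 and 18.4 FPKM, and was the member closest to Traf3. Its log2 difference was -0.88 ± 0.47 (95% interval -2.06 to 0.31, limma adjusted p = 0.968), and -0.27 without mouse WT-139.

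Ikbke, which encodes IKKe, the inducible relative of TBK1, had the widest spread of the 10 genes. It stood at 134.8 FPKM in mouse WT-139, 4.71 in WT-140, 10.8 in KO-826 and 11.3 in KO-850. The Usp25+/+ mice therefore held both the highest and the lowest value, 28.6-fold apart, with the Usp25-/- mice between them and close together. Usp25+/+ averaged 69.7 ± 92.0 FPKM and Usp25-/- 11.1 ± 0.316 FPKM (SD, n = 2). The log2 difference was -1.21 ± 1.44 (95% interval -4.85 to 2.44, limma adjusted p = 0.968), and its sign turned to 1.08 without mouse WT-139. Without mouse WT-140 it was -3.49 with a limma adjusted p of 0.0274, a comparison in which WT-139 is the single Usp25+/+ mouse. The balance of the 2 kinases shifted accordingly. Ikbke was at 2.40 times the level of Tbk1 in mouse WT-139, 0.20 times in WT-140, 0.528 times in KO-826 and 0.615 times in KO-850.

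Irf3, the transcription factor these kinases phosphorylate, was the steadiest of the branch outside mouse WT-139. Its level was 13.7 FPKM in WT-139, 21.3 in WT-140, 21.7 in KO-826 and 21.7 in KO-850. It was thus lowest in the mouse in which Ikbke, Tbk1 and Traf3 were highest. The log2 difference was 0.32 ± 0.33 (95% interval -0.51 to 1.16, limma adjusted p = 0.968), and 0.02 without mouse WT-139. Per unit of Irf3, Tbk1 stood at 4.10 in mouse WT-139 and at 1.11 in WT-140, 0.948 in KO-826 and 0.848 in KO-850. The Irf3 gene shares 88 exonic bases with Bcl2l12 on the opposite strand in the mm9 annotation, and whether the counting used strand is not known.

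**Figure D1:**
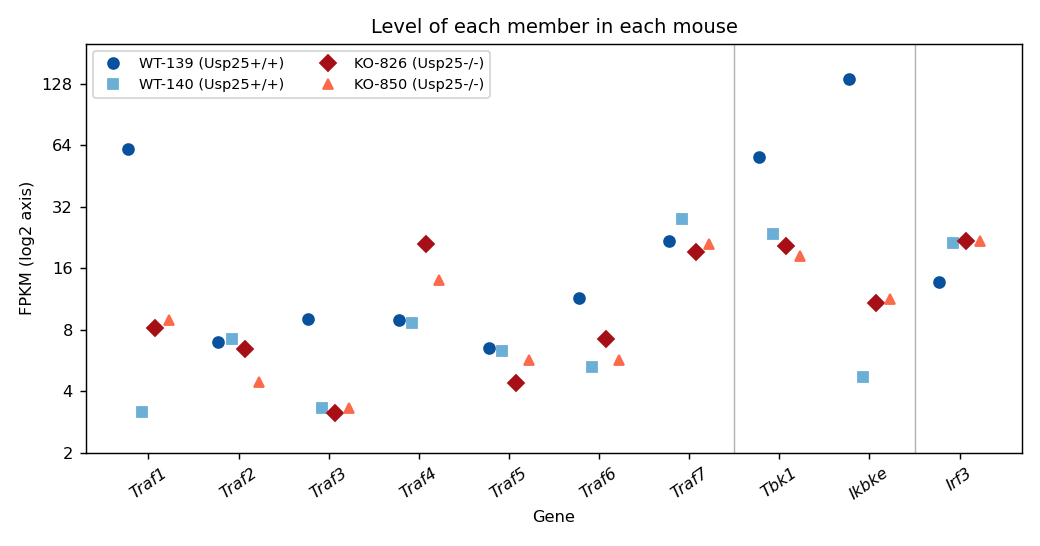
Levels of the 10 genes in each of the 4 mice, in FPKM on a log2 axis, with 1 point for each mouse and vertical lines between the TRAF adaptors, the kinases and Irf3. Ikbke reaches 134.8 FPKM and Traf1 61.3 FPKM in mouse WT-139, whereas Traf4 is higher in both Usp25-/- mice.

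Traf1 is the TRAF without a RING domain and a well known NF-kappaB target. It stood at 61.3 FPKM in mouse WT-139, 3.17 in WT-140, 8.17 in KO-826 and 8.91 in KO-850. As with Ikbke, the Usp25+/+ mice were the highest and the lowest, 19.3-fold apart, and Ikbke was between 1.27 and 2.20 times the level of Traf1 in every library. The log2 difference of Traf1 was -0.76 ± 1.24 (95% interval -3.89 to 2.38, limma adjusted p = 0.972). It turned to 1.19 without mouse WT-139 and became -2.71 without WT-140, with a limma adjusted p of 0.0341. That comparison without WT-140 called 163 of 11793 genes, or 1.38%, and 150 of these were lower in Usp25-/-. The neutrophil marker sum given above has the same extremes, highest in WT-139 and lowest in WT-140, and its part in the values of Traf1 and Ikbke was not tested.

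Traf6, the ligase that joins IL-1, Toll-like and IL-17 receptors to NF-kappaB, showed a milder form of this pattern. It stood at 11.5 and 5.23 FPKM with Usp25 and at 7.22 and 5.68 FPKM without it, so the genotypes overlapped. Its log2 difference of -0.25 ± 0.42 (limma adjusted p = 0.974) turned to 0.25 without mouse WT-139.

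Traf4, an adaptor known from epithelia and development, was the member with the clearest separation of genotypes and the only one with an unadjusted p under 0.05. It stood at 8.90 and 8.63 FPKM in the Usp25+/+ mice and at 20.9 and 14.0 FPKM in the Usp25-/- mice. The means were 8.76 ± 0.186 and 17.5 ± 4.91 FPKM (SD, n = 2). The log2 difference was 0.89 ± 0.32 with a 95% interval from 0.09 to 1.70. The unadjusted p was 0.0358 and the adjusted p 0.968 by limma over all 12103 genes tested, of which 400 had an unadjusted p under 0.05, so it did not pass. Leaving out any 1 mouse kept the difference between 0.62 and 1.17. General epithelial markers moved with it. The mean log2 value of all 8 was higher without Usp25, and their sum was 844 and 739 FPKM in Usp25+/+ against 3326 and 1282 FPKM in Usp25-/-. Epcam, an epithelial surface protein, measured 57.8 and 35.8 against 205 and 69.9 FPKM. The lung epithelial markers followed less. They were higher for 7 of 8 with all mice, but the genotypes did not overlap for only 2 (25%, background 19.0%). Without mouse WT-139 they were higher for 3 and lower for 5. The part of epithelial RNA in the Traf4 values was not tested.

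Traf2, Traf5 and Traf7 varied little. Traf2, the ligase partner of TNF receptors, stood at 6.93 and 7.16 FPKM with Usp25 and at 6.39 and 4.43 FPKM without it. Traf5, an adaptor with functions that partly overlap those of Traf2, had 6.49 and 6.30 against 4.39 and 5.70 FPKM. Traf7, which has WD40 repeats where the others carry the TRAF domain, measured 21.7 and 27.8 against 19.3 and 21.0 FPKM. For each of the 3, both Usp25-/- mice lay below both Usp25+/+ mice by small margins. Log2 differences were -0.34 ± 0.31 for Traf2, -0.30 ± 0.29 for Traf5 and -0.27 ± 0.29 for Traf7, each with a limma adjusted p of 0.968. Their 95% intervals ran from -1.12 to 0.43, -1.04 to 0.44 and -1.02 to 0.47, so they hold both no difference and a difference in either direction. Without mouse WT-139 the differences were -0.36, -0.28 and -0.45. Each shrank to its smallest size without 1 other mouse, to -0.12 for Traf2 without KO-850, -0.14 for Traf5 without KO-826 and -0.10 for Traf7 without WT-140. In the mm9 annotation Traf5 shares 188 exonic bases with the noncoding gene Gm16621, and Traf7 shares 56 with Caskin1, both on the opposite strand.

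**Figure D2:**
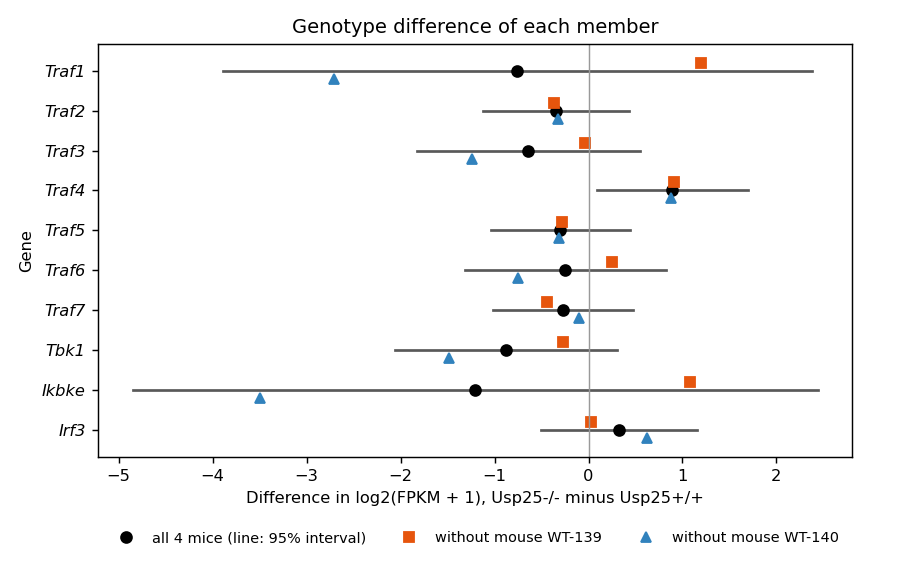
Difference in log2(FPKM + 1) between the genotypes, Usp25-/- minus Usp25+/+, for each gene, with all 4 mice (black, line for the 95% interval of limma), without mouse WT-139 (orange) and without mouse WT-140 (blue). The Traf4 interval alone lies above 0 before adjustment, and Traf1, Traf6 and Ikbke change sign when mouse WT-139 is left out.

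Over the 10 genes, limma called 0, and percent called over all 12103 tested genes was also 0. All 10 passed the filter of 1 FPKM in at least 2 mice. In 7 the genotypes did not overlap, against 33.7% of all tested genes. Of these 7, 2 were higher (Traf4 and Irf3) and 5 were lower (Traf2, Traf3, Traf5, Traf7 and Tbk1) in Usp25-/-. Over all tested genes 19.0% lay higher and 14.7% lower in this sense. The median log2 difference was -0.32 over the members and 0.03 over all tested genes. Without mouse WT-139 it was -0.01 over both. In that fit 5 members were higher and 5 lower, against 5686 higher and 6031 lower among all tested genes that still passed the filter. The sign turned for 3 of the 10 in that step (Traf1, Traf6 and Ikbke), and for 30.0% of the tested genes. The single-gene exact permutation test cannot go below p = 0.333 with 2 mice against 2. Usp25 itself, with a log2 difference of -3.07 ± 0.47, had a limma adjusted p of 0.968.

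As a family, the TRAF transcripts were made up differently in mouse WT-139. The 7 levels summed to 125.7 FPKM in WT-139, 61.5 in WT-140, 69.5 in KO-826 and 63.0 in KO-850. Traf1 made up 48.8% of that sum in WT-139 and 5.15%, 11.8% and 14.1% in the others. Traf4 made up 7.08% and 14.0% in the Usp25+/+ mice and 30.1% and 22.2% in the Usp25-/- mice. Traf7 led in WT-140 and KO-850, Traf4 in KO-826 and Traf1 in WT-139. Relative to Traf2 in the same library, Traf4 stood at 1.28 and 1.21 against 3.28 and 3.16. Mouse WT-139 held the highest value of 6 of the 10 members (Traf1, Traf3, Traf5, Traf6, Tbk1 and Ikbke), and of 29.7% of all tested genes. It held the lowest value of 1 member, Irf3, and of 39.1% of all tested genes.

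**Figure D3:**
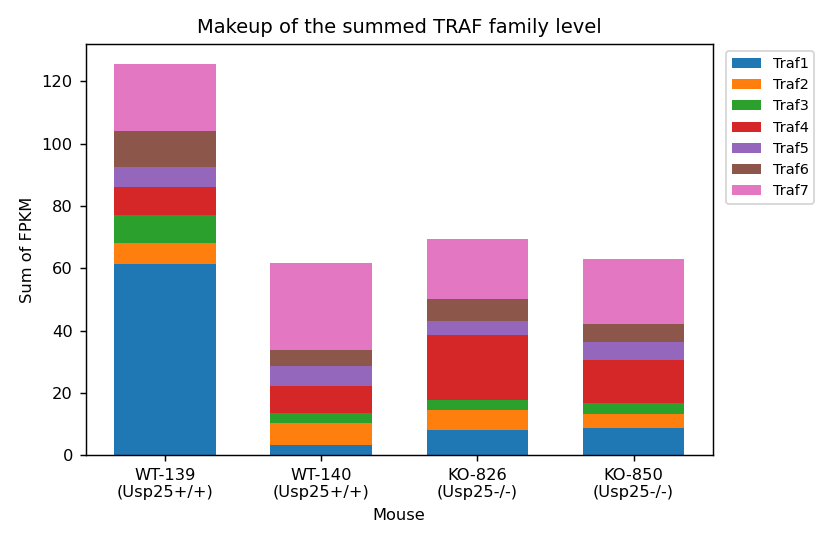
Sum of the FPKM levels of the 7 TRAF genes in each mouse, stacked by gene, with the mouse and its genotype on the horizontal axis. The column of mouse WT-139 reaches 125.7 FPKM, 48.8% of it Traf1, and the other columns end between 61.5 and 69.5 FPKM.

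Ordered by their median over the 4 mice, the members ran from Tbk1 at 22.1 FPKM through Irf3 at 21.5, Traf7 at 21.3, Traf4 at 11.4, Ikbke at 11.1, Traf1 at 8.54, Traf2 at 6.66, Traf6 at 6.45 and Traf5 at 6.00 to Traf3 at 3.30 FPKM. The ranges of each pair of neighbours in this order overlapped. Both kinases and the factor they act on thus stood above the adaptor Traf3 in the median. The lowest Tbk1 value (18.4 FPKM) was above the highest Traf3 value (8.98 FPKM).

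Among 9228 other tested genes with a spread of at least 0.2 on the log2 scale, those with the profile most like Traf3 over the 4 mice were Trim21, Tank and Btg2. The Euclidean distances between their centred log2 profiles and that of Traf3 were 0.031, 0.043 and 0.061. Trim21 had 7.16 and 2.55 against 2.36 and 2.43 FPKM. Btg2 measured 220 and 95.1 against 86.9 and 90.8 FPKM. With 4 points and so many genes such matches are a description only. Among 11365 genes, with no minimum spread, the closest profiles to Irf3 were those of Zcchc14, Gins2 and Nudt13, at 0.022, 0.029 and 0.031.

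Outside the 10 genes, 8 lists of the same pathways held 94 genes, of which 85 could be tested. Of these 66 were lower and 19 higher in mean log2 value in Usp25-/-, or 77.6% lower against 46.4% of all tested genes, and limma called 0. The genotypes did not overlap for 27 on the lower side (31.8%, background 14.7%) and for 4 on the higher side (4.71%, background 19.0%). Usp25, which the Usp25-/- mice lack by design, is counted on the lower side throughout. Mouse WT-139 was the highest of the 4 for 57 of the 85, or 67.1%, against 29.7% over all tested genes. Among those that still passed the filter without it, 53 were lower and 29 higher. The median log2 difference of the 85 was -0.45 with all mice and -0.17 without WT-139. Of all tested genes that still passed, 6031 were lower and 5686 higher without WT-139. This is also the background for the list counts without that mouse given below. Several lists of cell type markers, but not all, leaned to one side in the same comparison of WT-140 with the Usp25-/- mice. Endothelial markers were lower for 8 of 8 genes (median log2 difference -0.92), macrophage and monocyte markers for 8 of 10 (-0.31), and general epithelial markers were higher for 8 of 8 (1.53). Neutrophil markers were higher for 7 genes and lower for 1 (1.08), and fibroblast markers higher for 7 and lower for 1 (0.39). Lung epithelial markers were higher for 3 and lower for 5 (-0.17). Markers of T and NK cells were higher for 3 and lower for 3 (-0.05), as were those of B and plasma cells (0.12). Smooth muscle markers were higher for 2 and lower for 2 (0.03). The part of these cell types in the pathway lists was not tested. Genes of one pathway are not independent of each other, and the lists were drawn up with earlier results known.

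Among the sensors and adaptors upstream of TRAF3, 11 of 12 had lower mean log2 values in Usp25-/-, with a median log2 difference of -0.43, and limma called 0. Without mouse WT-139 the count and the median were the same, but single genes moved in both directions. Mavs, the adaptor of the RNA sensors, went from 0.24 to -0.56, and Tlr4, the receptor for bacterial lipopolysaccharide, from -0.86 to 0.03. The log2 difference of Ifih1 went from -1.48 to -0.56, that of Ddx58 from -1.15 to -0.42, that of Zbp1 from -1.30 to -0.06 and that of Myd88 from -0.57 to -0.16. Mavs and Tlr4 were chosen after their values were seen. Ifih1, which encodes the RNA sensor MDA5, had 26.4 and 6.65 against 3.61 and 4.80 FPKM. Ddx58, which encodes the RNA sensor RIG-I, measured 22.0 and 7.31 against 3.82 and 7.04 FPKM. Zbp1, a sensor of nucleic acids, had 99.4 and 17.0 against 16.7 and 16.0 FPKM, so 3 of the mice were nearly level. Myd88, the adaptor of most Toll-like receptors, had 97.1 and 54.8 against 46.8 and 51.3 FPKM. The genotypes did not overlap for any of these 4, which were picked from the list by smallest p. In the whole list they did not overlap for 6 of 12 genes, all on the lower side (background 14.7%). KO-850 came close to WT-140 in all of the 4 but Ifih1.

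Scaffolds and cofactors of TBK1 and IKKe were lower for 7 of 8 tested genes with all mice, and for 4 of 8 without mouse WT-139. The median log2 difference was -0.46 and then 0.09. Tank, which ties TRAF3 to these kinases, measured 38.2 and 15.4 against 15.1 and 15.4 FPKM. Optn, which encodes the ubiquitin-binding adaptor optineurin, had 46.0 and 19.1 against 15.5 and 11.4 FPKM.

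Other interferon regulatory factors were lower for 7 of 8 genes, with a median log2 difference of -0.98. Among those that still passed the filter without mouse WT-139, 6 were lower and 1 higher, with a median of -0.27. Irf1, itself induced by interferons, measured 242 and 78.6 against 30.6 and 46.0 FPKM. Irf8, a factor of the myeloid and B lineages, had 28.7 and 22.3 against 9.39 and 16.2 FPKM. The unadjusted limma p was 0.0257 for Irf1 and 0.0426 for Irf8, and the adjusted p was 0.968 for both.

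Genes known as IRF3 targets had the largest shift of the 8 lists when mouse WT-139 was left out. All 9 tested ones were highest in mouse WT-139 and lower on average in Usp25-/-, with a median log2 difference of -1.66. Without it 5 were lower and 4 higher and the median was -0.03. Cxcl10, a chemokine for T cells, measured 465 and 52.9 against 25.4 and 29.5 FPKM. Ifit2, which encodes an antiviral protein, had 22.3 and 2.16 FPKM against 0.432 and 1.29 FPKM. Zc3hav1, which encodes an antiviral zinc finger protein, had 46.4 and 20.1 against 17.3 and 17.9 FPKM. Isg15, a ubiquitin-like modifier, was at 154 FPKM in WT-139 and at 15.4, 15.4 and 14.6 FPKM in the other 3 mice. Ifnb1 itself did not exceed 0.464 FPKM and was not tested.

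**Figure D4:**
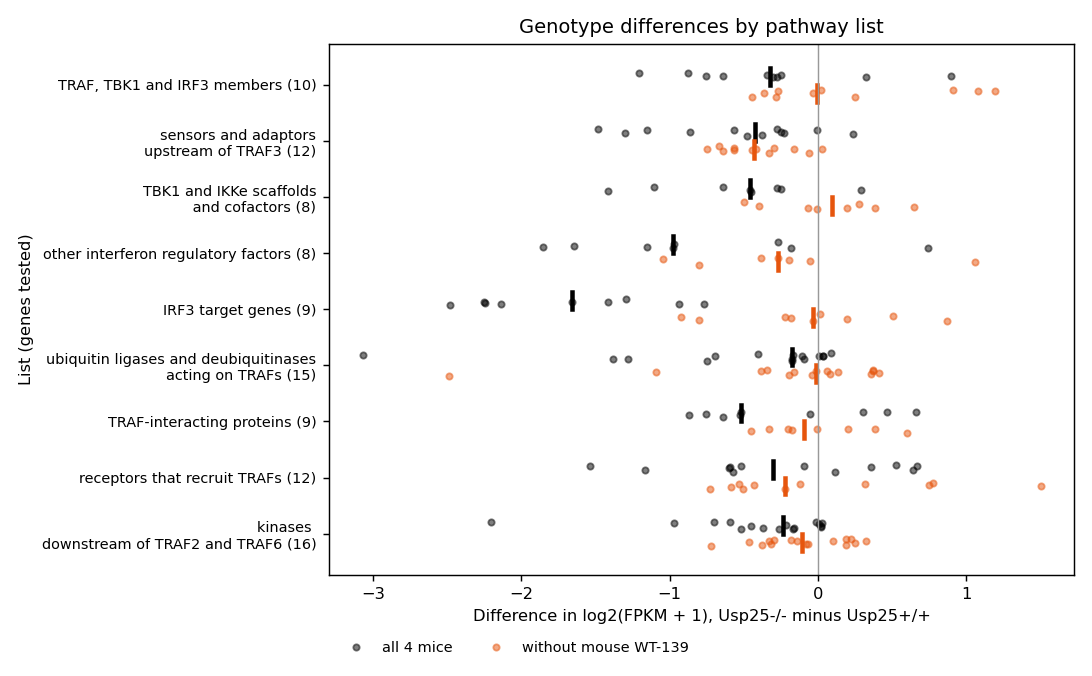
Difference in log2(FPKM + 1), Usp25-/- minus Usp25+/+, for each tested gene (points) of the 10 members and of the 8 pathway lists, with all 4 mice (black) and without mouse WT-139 (orange), and the median of each list as a bar. The IRF3 target genes move from a median of -1.66 to -0.03. The median of the sensors is -0.43 in both cases, while single sensors move in both directions.

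Enzymes that add ubiquitin to TRAF complexes or remove it were lower for 11 of 15 tested genes, with a median log2 difference of -0.17, and for 8 of 15 without mouse WT-139. The list contains Usp25. Tnfaip3, which encodes the ubiquitin-editing enzyme A20, had 582 and 158 against 142 and 110 FPKM. Birc3, a ligase that partners TRAF2, measured 175 and 22.1 against 24.6 and 22.3 FPKM, so 3 of the mice were nearly level.

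Among other TRAF-binding proteins 6 of 9 tested genes were lower, with a median log2 difference of -0.52. Among those that still passed the filter without mouse WT-139, 5 were lower and 3 higher, with a median of -0.09. Trafd1, a feedback inhibitor of innate signalling, had 60.9 and 40.0 against 26.8 and 31.1 FPKM. Map3k14, which encodes the kinase NIK that TRAF3 keeps low as a protein, measured 4.75 and 3.45 against 2.97 and 2.15 FPKM. Tdp2 was on the other side, at 5.09 and 5.62 FPKM against 8.94 and 9.17 FPKM (log2 difference 0.66 ± 0.27, limma adjusted p = 0.968).

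Receptors that recruit TRAFs were lower for 7 of 12 tested genes, and their genotypes did not overlap for 6 of the 12 on the lower side (background 14.7%) and for 2 on the higher side (16.7%, near the background of 19.0%). Cd40, a TNF receptor family member of antigen-presenting cells, had 13.0 and 3.53 against 0.962 and 2.84 FPKM. Tnfrsf1b, which encodes TNF receptor 2, measured 182 and 72.5 against 46.9 and 55.0 FPKM. Those 2 were Il17rc and Il18r1. Il17rc, a subunit of the IL-17 receptor, had 2.68 and 2.16 against 5.29 and 3.67 FPKM, and Il18r1, the IL-18 receptor, at 12.7 and 10.9 FPKM against 18.7 and 19.1 FPKM.

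Kinases downstream of TRAF2 and TRAF6 were lower for 12 of 16 genes, with a median log2 difference of -0.24, and for 10 of 16 without mouse WT-139. Map3k3, which encodes the kinase MEKK3, measured 21.2 and 21.8 against 11.0 and 14.9 FPKM, with a log2 difference of -0.70 ± 0.30 that was -0.72 without WT-139 (limma adjusted p = 0.968 with all mice). Ripk1, the kinase of the TNF receptor 1 complex, had 29.6 and 21.8 against 15.9 and 17.1 FPKM. Irak3, an inhibitor of Toll-like receptor signalling, reached 118 FPKM in WT-139, with 4.36 to 6.08 FPKM in the other 3 mice.

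On the mm9 build, Traf3 lies at chr12:112404581-112505364 and Irf3 at chr7:52253018-52258218, both on the plus strand, as is Traf6 at chr2:101518586-101541826. On the minus strand lie Traf1 at chr2:34797270-34817292, Traf2 at chr2:25373502-25402460, Traf4 at chr11:77972001-77979091, Traf5 at chr1:193821311-193916440, Traf7 at chr17:24645795-24656153, Tbk1 at chr10:120983511-121023850 and Ikbke at chr1:133150920-133176183. All 10 are protein-coding, and with overlapping exons merged they hold between 5 (Traf4) and 21 (Tbk1) exons.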

How the data were processed

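PolyA RNA of pieces labelled as colon, from 4 mice, was analysed from 1 table of FPKM values that the authors deposited, with 1 column for each mouse. Per the submitters' processing notes, Bowtie 0.12.2 and the build mm9 were used. Not given in the sources used here: the tool for FPKM, the annotation, strandedness and filters. Columns sum to between 526652 and 565645. An FPKM table holds no read totals, so depth is unknown. A rough guide, the commonest product of FPKM and length over 2617 genes with 1 exon, put WT-139, KO-826 and KO-850 at 1.25, 0.790 and 0.742 times the depth of WT-140.

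Genotypes were taken from the labels. Of the symbols, 27 turned into dates were left out. Genes with an FPKM of at least 1 in at least 2 mice (12103) were fitted as log2(FPKM + 1), which understates changes of low genes, by limma 3.58.1 in R 4.3.3 with a mean-variance trend, two-sided, without a block, with Benjamini-Hochberg adjustment over all of them and a threshold of 0.05. The p-values measure only the spread between these 4 mice. The script was tested on simulated data with large planted changes. Their recovery was required only at a spread smaller than the observed one, so the test does not show how many real changes would be found here. Alternatives changed the pseudocount, filter, scaling, variance model and mice.

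The members and lists were chosen with earlier results of these data known. Named list genes were taken from the 4 with the smallest p in each list, not all of which are described, plus Usp25, the marker genes, Mavs, Tlr4 and Ifnb1 being chosen after their values were seen. Profile likeness was computed with predicted, RIKEN, Mir and Snor genes passed over. Positions come from Gencode on mm9. Promoter windows are RefSeq's on GRCm38.p6, and all 10 members matched by symbol. The values of 1 list gene are not reported here. A planned comparison of protein sequences was not run. Python 3.11.15, pandas 2.3.3 and matplotlib 3.10.9 were used.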

Additional observations from a re-analysis of the deposited data

How the results depend on the processing

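Pseudocounts of 0.1 and 0.5, no filter, a filter on the mean, 2 other scalings between libraries and 2 other variance models kept the direction of all 10 members and called none of them. The scalings moved the median log2 difference of all genes from 0.03 to 0.01. Leaving out each mouse in turn gave a log2 difference between -2.71 and 1.19 for Traf1, between -3.49 and 1.08 for Ikbke, and between -0.75 and 0.25 for Traf6, and between 0 and 163 genes called by limma. The positive values of these 3 genes came without mouse WT-139. The lowest came without WT-140, where Traf1 (adjusted p = 0.0341) and Ikbke (0.0274) passed limma. For the other 7 members no single mouse turned the direction. A comparison that leaves a genotype with 1 mouse assumes that it varies like the other genotype. No paired analysis was possible because the mouse numbers in the labels are all different and no litter or batch is recorded. With unknown depth, no counting error can be given.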

Other observations

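Ranks within a library do not depend on scaling between libraries. Among the 12103 tested genes, Ikbke stood at the 95.3 percentile in mouse WT-139 and at 36.0 in WT-140, 59.2 in KO-826 and 60.2 in KO-850. Traf1 stood at 90.4 against 25.4, 51.5 and 53.5, and Tbk1 at 89.6 against 77.4, 74.3 and 72.7. Traf4 stood at 54.1 and 53.0 in the Usp25+/+ mice and at 74.7 and 66.1 in the Usp25-/- mice. The spread over the 4 mice on the log2 scale (SD) was 1.99 for Ikbke and 1.65 for Traf1, larger than in 99.4% and 98.7% of tested genes. It was 0.22 for Traf5 and for Traf7, larger than in 21.8% and 22.0%.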
